A study of Mus musculus with 8 samples.

Results

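The comparison covers withdrawal of leukemia inhibitory factor (LIF) from J1 cells, a line of mouse embryonic stem cells that is wild type for Rex-1. It rests on 4 of the 8 arrays of the study, 2 of J1 cells cultured without LIF and 2 of J1 cells cultured with LIF. Total RNA was measured on single-colour Affymetrix arrays, on which each transcript is read by 1 or more probe sets. Probe sets other than the array's own controls were kept when their mean log2 signal over the 8 arrays was at least 8, which left 14892 of 45037. The other 4 arrays, 2 without and 2 with LIF, came from cells labelled Rex-1 KO (homozygous for loss of Rex-1 per the labels). They entered the common estimate of spread and are shown beside J1 cells where stated.

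All J1 cells grew on gelatin-coated dishes in serum-containing medium. The medium of the cells with LIF was supplemented with the cytokine, and that of the others was not. The RNA extraction text gives 12 hours without LIF, and it is the same for all arrays, including those labelled as having LIF. Per the series text the paired arrays are biological replicates. Within a group, 1 title carries an added letter r that no label explains, and nothing says that the cultures were separate. Any p-value here therefore reflects only how far these particular arrays vary, which may be technical. The array without the letter is called the first array here and the array with it the second, and the 2 are given separately.

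LIF binds a receptor made of LIFR and gp130, the product of Il6st. The receptor activates JAK kinases, which phosphorylate the transcription factor STAT3. STAT3 induces its own inhibitor Socs3 and factors such as Klf4 and Tfcp2l1 that hold mouse embryonic stem cells in the naive pluripotent state. Without the cytokine these cells begin to leave that state toward that of the primed epiblast, marked by factors such as Otx2 and by the de novo DNA methyltransferases.

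All 6 markers of embryonic stem cells lay above the signal floor in J1 cells. Pou5f1 (Oct4) had signals of 10411 and 10994 in the first and second arrays without LIF, against 10460 and 12182 with LIF. Zfp42, which encodes Rex-1, had 18217 and 20563 without LIF, against 18482 and 23255 with LIF. None of the 6 markers separated the groups. Of 6 markers of primitive endoderm, 4 of trophoblast and 7 of fibroblasts or feeder cells, 1, 0 and 1 lay above the floor. In a bulk sample, fewer cells of a type and less RNA per cell cannot be told apart.

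The first and second arrays differed from each other more than the LIF groups did. Over the tested probe sets the median absolute log2 difference between the 2 arrays of a group was 0.21 without LIF and 0.25 with LIF. Between the groups it was 0.13 in first arrays and 0.17 in second arrays. Summed over 7 genes that mark fibroblasts or feeder cells, the signal was 1546 without LIF and 1267 with LIF in first arrays, and 700.2 without LIF and 692 with LIF in second arrays. The sum thus followed the array order more than the groups, and its part in the results was not tested. In first arrays most of it came from Col1a1 and Col1a2. Lum and Dcn ran the other way, higher in the second array of each group. Dcn had 24.7 and 105.3 without LIF, against 43.1 and 109.1 with LIF. Postn and Lum, defining markers of such cells, lay below the floor.

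No probe set passed the test for LIF withdrawal in J1 cells. limma called 0 of 14892 probe sets (0%) at an adjusted p under 0.05, and 242 had an unadjusted p under 0.05. With the first-against-second difference fitted as a replicate block, limma called 0 again (0%), and 652 had an unadjusted p under 0.05. The smallest adjusted p was 0.943 without the block and 0.446 with it. An exact permutation test of 2 arrays against 2 cannot give a two-sided p below 0.333. Without the first array lacking LIF, 4 probe sets were called, the 3 of Socs3 and the 1 of Bcl3. In that fit the lone remaining array without LIF is assumed to vary like the other groups. The differences below are therefore given as measured values with their standard errors (SE) from the fit without the block, and none of them passed the test over all arrays.

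The larger differences that recurred in both arrays were mostly downward. In first arrays 26 probe sets were at least 2-fold lower without LIF (0.175%) and 35 at least 2-fold higher (0.235%). In second arrays the counts were 77 (0.517%) and 46 (0.309%). Of these, 10 probe sets were at least 2-fold lower in both (0.0672%) and 1 was at least 2-fold higher in both (0.00672%). The 10 lower ones were 3 probe sets of Socs3, 1 each of Bcl3, Junb, Gjb5, Dapp1, Spink1 and Klf4, and 1 without a gene symbol here. The 1 higher one was Otx2. Without the first array lacking LIF, 39 probe sets were at least 2-fold lower in every remaining pair of arrays, and 18 were without the first array with LIF. The higher count was 6 to 19 when any 1 of the 4 arrays was left out.

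**Figure D1:**
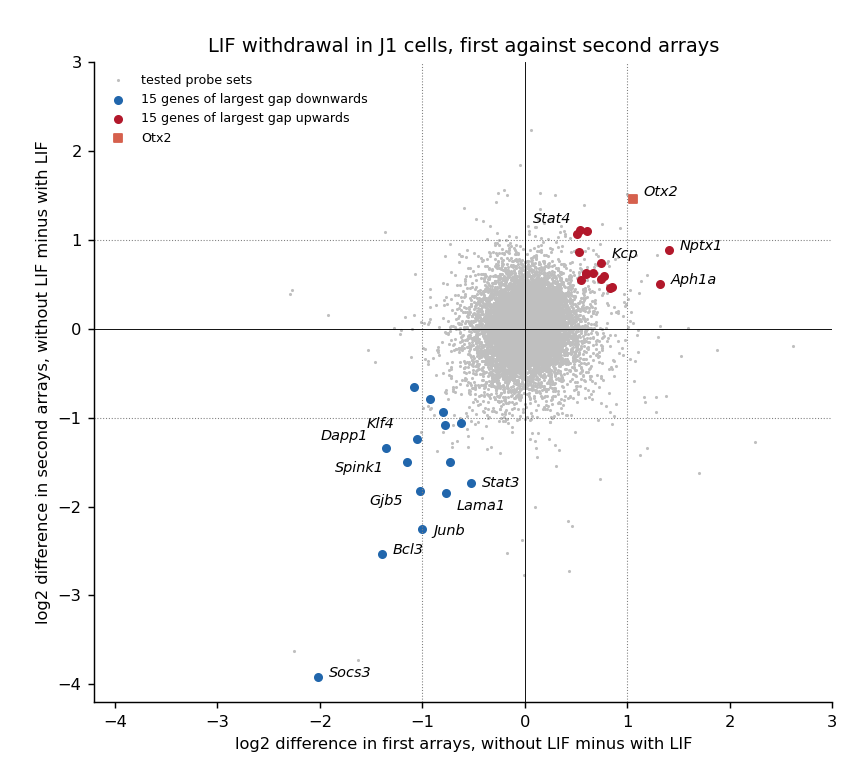
Each grey point is 1 of 14892 tested probe sets, with its log2 difference (without LIF minus with LIF) in first J1 arrays on the x axis and in second J1 arrays on the y axis. Blue and red points are the 15 genes with the largest gap between groups downwards and upwards, dotted lines mark 2-fold, and Socs3 lies farthest from the origin at -2.01 and -3.92.

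Socs3, the feedback inhibitor that STAT3 induces, showed the largest gap between the groups. Its signal was 1549 and 364 in the first and second arrays without LIF, against 6253 and 5505 with LIF. Both arrays without LIF lay far below both with it, and the second lay below the first. The log2 difference was -2.97 (SE 0.56, n = 2 each), which is 7.81-fold lower, with 4.04-fold between first arrays and 15.1-fold between second arrays. The limma adjusted p was 1.00 (0.632 with the block), and it was 0.0120 without the first array lacking LIF, where the difference was -4.01. All 3 tested probe sets of Socs3 were lower in both arrays, by -2.97, -2.94 and -2.68.

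The upstream sequences of Socs3 and Icam1 are shown because both genes are on the list of LIF and STAT3 targets and share 2 further traits. Both were lower without LIF with no overlap of the groups. For Icam1 this was by almost nothing, 829.7 in the first array without LIF against 831 in the second with LIF. Both windows hold the letters TTCNNNGAA that STAT factors bind. These letters read the same on both strands. The 250 bases before the RefSeq start are given, 5′ to 3′ in the direction of the gene, with the motif in capitals. They come from RefSeq on GRCm38.p6. The first window is chr11:117969367-117969616 on the minus strand, with the motif beginning 154 bases before the start. The second is chr9:21015690-21015939 on the plus strand, with the motif beginning 42 bases before the start.
Socs3: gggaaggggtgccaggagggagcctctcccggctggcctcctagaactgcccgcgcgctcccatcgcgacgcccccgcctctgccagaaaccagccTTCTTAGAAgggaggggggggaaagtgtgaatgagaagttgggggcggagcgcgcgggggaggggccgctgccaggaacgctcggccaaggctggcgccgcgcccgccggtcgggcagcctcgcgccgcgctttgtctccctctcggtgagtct
Icam1: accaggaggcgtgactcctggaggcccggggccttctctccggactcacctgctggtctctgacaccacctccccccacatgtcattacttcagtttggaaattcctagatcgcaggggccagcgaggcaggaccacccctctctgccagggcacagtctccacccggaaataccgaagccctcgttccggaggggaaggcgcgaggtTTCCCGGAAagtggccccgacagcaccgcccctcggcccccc
Among the tested genes of the target list, 19 of 26 had such a window and 3 of these held the motif, Socs3, Icam1 and Sgk1. The motif was found in 473 of 6888 tested genes with a window (6.87%). The groups of Sgk1, a kinase, overlapped. Of the 15 genes of largest downward gap, 12 had a window and 1 held it (8.33%). Of the 15 of largest upward gap, 10 had a window and 2 held it (20%), Tenm3 and Rab15. A gene with several RefSeq starts has several windows and was counted when any of them held the motif. Rab15 and Sgk1 are such genes, and only 1 window of each held it. The share among the targets was 15.8%. A match describes these letters in this window only.

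Of the listed LIF and STAT3 targets, 26 of 29 were tested, and 12 of them were lower in both arrays without LIF than in both with it, while 0 were higher in this sense. Over all 8365 tested genes the shares were 10.8% lower and 13% higher. The median log2 difference of the list was -0.52, with -0.38 in first and -0.44 in second arrays, against 0.01 over all genes. It was -0.27 without the second array lacking LIF and -0.26 without the first array with LIF. In both first and second arrays 19 of the 26 targets were lower, beside 24.7% of all genes. Of these, 14 had the larger difference in second arrays and 5 in first arrays. The list was chosen with earlier results of these data known.

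Bcl3, a nuclear partner of NF-kappaB that is a known LIF target, had signals of 458 and 181 without LIF, against 1205 and 1047 with LIF. The groups did not overlap, and the log2 difference was -1.96 (SE 0.38). It was -2.63 without the first array lacking LIF, where limma called it (adjusted p = 0.0426). Junb, a subunit of the AP-1 transcription factor, had 348 and 115 without LIF, against 696 and 549.6 with LIF. Its difference was -1.63 (SE 0.57), and in second arrays alone it was -2.26, so the second array without LIF carried the greater part.

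Klf4, a pluripotency factor downstream of STAT3, had signals of 2399 and 1502 without LIF, against 4963 and 3535 with LIF. Its difference of -1.14 (SE 0.28) was alike in both arrays, -1.05 and -1.24, and its second probe set gave -0.91. Stat3 itself had 1389 and 699 without LIF, against 1997 and 2328 with LIF, a difference of -1.13 (SE 0.31). Here the first arrays differed by -0.52 and the second by -1.74. Its other probe set gave -0.78.

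Mras, a Ras-related GTPase, had signals of 454 and 259.7 without LIF, against 752 and 732 with LIF, a difference of -1.11 (SE 0.28). Icam1, a cell adhesion molecule, had 829.7 and 393 without LIF, against 1348 and 831 with LIF. The higher array without LIF and the lower array with LIF were almost equal, and the mean difference was -0.89 (SE 0.41). Pim3, a survival kinase, had 2803 and 2395.5 without LIF, against 3806 and 4287.5 with LIF, a difference of -0.64 (SE 0.19). Of the 3 tested Pim3 probe sets, 2 were lower in both arrays and 1 was higher, from -0.86 to 0.29.

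Several listed targets did not separate the groups. Myc had signals of 3052 and 1695 without LIF, against 3115 and 1787 with LIF, a difference of -0.05 (SE 0.36), and its 2 arrays within each group stood farther apart than the groups. Pim1, a kinase related to Pim3, had 1656 and 1213 without LIF, against 1661.5 and 864 with LIF. Its difference was 0.24 (SE 0.43), and a second probe set gave -0.33. Socs2 and Cish, other members of the SOCS family, had differences of -0.13 (SE 0.26) and -0.12 (SE 0.19). Cebpb and Cebpd, transcription factors of the C/EBP family, had 0.23 (SE 0.81) and 0.48 (SE 0.69).

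**Figure D2:**
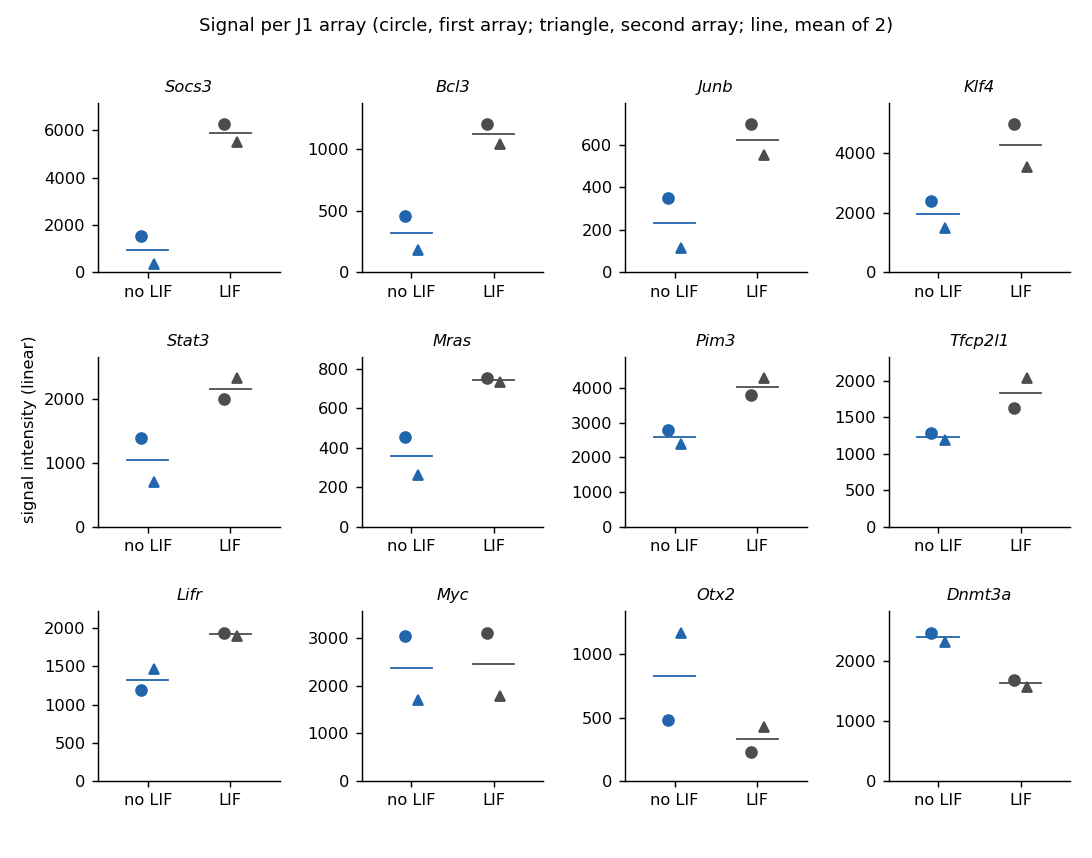
Linear signal intensity of 12 genes in the 4 J1 arrays, without LIF on the left and with LIF on the right. Circles are first arrays, triangles second arrays and lines the mean of 2. The groups are separate for all genes shown except Myc, where the 2 arrays of a group differ more than the groups.

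Components of the receptor pathway were mixed. Of 23 tested genes of the list of receptor, JAK, STAT and inhibitor genes, 5 were lower without overlap and 2 higher, beside the 10.8% and 13% of all genes, and the list median was -0.02. Lifr, the ligand-binding receptor chain, had signals of 1185 and 1470.5 without LIF, against 1944.5 and 1898 with LIF, a difference of -0.54 (SE 0.17). Il6st, the gp130 chain, had 515 and 668 without LIF, against 492 and 690.55 with LIF, and its difference was 0.01 (SE 0.25). Lifr thus separated the groups and Il6st did not.

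Jak1, the main kinase of this receptor, had signals of 1083.5 and 985 without LIF, against 824 and 815 with LIF, a difference of 0.33 (SE 0.16). Its other probe set gave -0.29, so the probe sets disagreed. Jak2 had 422 and 519 without LIF, against 369.5 and 226 with LIF, so that the second array with LIF stood apart as the lowest. Jak3, a kinase best known in lymphocytes, had 343 and 315 without LIF, against 423 and 597 with LIF, a difference of -0.61 (SE 0.22). Socs4, Socs5, Socs6 and Socs7, the other tested SOCS members, had differences from -0.02 to 0.28.

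Genes of the naive state were lower in part. Of 23 tested, 7 were lower without overlap and 0 higher, beside 10.8% and 13% of all genes, with a median of -0.18 (-0.24 in first and -0.22 in second arrays). In both first and second arrays 14 were lower and 4 higher, beside 24.7% and 28.9% of all genes. Over its 7 alternative settings the median ran from -0.26 to -0.02. Klf4 above was the largest of them. Tfcp2l1, a STAT3-dependent naive factor, had signals of 1282.5 and 1182 without LIF, against 1621 and 2032 with LIF, a difference of -0.56 (SE 0.17). Esrrb, an orphan nuclear receptor of the naive network, had 2101 and 1777 without LIF, against 2537 and 2708 with LIF, a difference of -0.44 (SE 0.17), and its 3 probe sets were all lower in both arrays.

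Tbx3, a T-box factor downstream of LIF, had signals of 706 and 520.3 without LIF, against 932 and 731 with LIF, a difference of -0.45 (SE 0.22). Jam2, a junctional adhesion molecule, had 1525 and 1722 without LIF, against 2163.5 and 2121.5 with LIF, and its 5 probe sets were all lower in both arrays. Klf5, a Krüppel-like factor, had 4316 and 1424 without LIF, against 5307 and 2429 with LIF. Its groups overlapped, since the first arrays exceeded the second in both, and the difference was -0.53 (SE 0.60). Klf2, of the same family, had -0.22 (SE 0.19) with groups just apart. Gbx2, a homeobox factor, had -0.67 between first and -0.59 between second arrays. Fbxo15, an F-box protein, had -0.52 and -0.66. Both were lower each time, although their groups overlapped because the 2 arrays of a group stood far apart.

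The core factors differed little. Sox2 had signals of 11681 and 13439 without LIF, against 12647 and 15117 with LIF, a difference of -0.14 (SE 0.18). Nanog, a homeobox factor of the core network, had 5035 and 7153 without LIF, against 6256 and 8448 with LIF, a difference of -0.28 (SE 0.26). Both had overlapping groups, and the difference of Pou5f1 was -0.08 (SE 0.16). Over 14 tested genes of the core list the median was -0.03. Without overlap 1 was lower and 1 higher, shares below the 10.8% and 13% of all genes. The lower one was Tdgf1 (Cripto), a co-receptor of Nodal, with 8281 and 8498.5 without LIF, against 10750 and 12989 with LIF, a difference of -0.49 (SE 0.16). The higher one was Zfp281, a zinc finger factor, at 0.22 (SE 0.22).

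Genes of the primed epiblast were higher as a list. Of 12 tested, 4 were higher without overlap and 1 lower, beside 13% and 10.8% of all genes. The median was 0.34, with 0.29 in first and 0.44 in second arrays. Otx2, a homeobox factor of the epiblast, had signals of 478 and 1173 without LIF, against 230.5 and 427 with LIF. Its difference was 1.26 (SE 0.46), which split into 1.05 between first and 1.46 between second arrays, and the first array without LIF lay only slightly above the second with LIF. The difference ran from 0.61 to 1.90 as 1 array was left out.

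Dnmt3a, a de novo DNA methyltransferase, had signals of 2478 and 2312 without LIF, against 1692 and 1573 with LIF. Its difference of 0.55 (SE 0.17) was the same in both arrays, 0.55 and 0.56, and its 4 probe sets were all higher in both, from 0.30 to 0.77. Dnmt3b, the related enzyme, had 8371.5 and 12060 without LIF, against 6477 and 8464 with LIF. Its groups overlapped slightly, at a difference of 0.44 (SE 0.31), although each array without LIF was above its counterpart with LIF. Zic5, a zinc finger factor, had 1553 and 1832.5 without LIF, against 1217 and 819 with LIF, a difference of 0.76 (SE 0.36).

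Pou3f1 (Oct6), a POU factor of the epiblast, had signals of 787 and 806 without LIF, against 641 and 283 with LIF. The second array with LIF was low, and the log2 difference was 0.30 between first and 1.51 between second arrays. Tet1, which oxidises methylated cytosine, was lower, with 5738 and 4891 without LIF, against 6769 and 7752 with LIF, at -0.45 (SE 0.18). Its other probe sets gave smaller differences of -0.19 and -0.11. Over the 11 tested genes of DNA methylation the median was 0.03, with 1 lower and 1 higher without overlap, Tet1 and Dnmt3a. These shares were below the 10.8% lower and 13% higher of all genes. Fgf5, a marker of the primed state, lay below the signal floor.

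Other genes with the largest downward gaps had no place on the LIF list. Dapp1, an adaptor protein of phosphoinositide 3-kinase signalling, had signals of 178 and 166 without LIF, against 456 and 420.15 with LIF. Its difference of -1.35 (SE 0.17) was nearly the same in both arrays, -1.36 and -1.34, and its mean level lay just inside the floor. Spink1, a secreted trypsin inhibitor, had 367 and 299 without LIF, against 814 and 843 with LIF, a difference of -1.32 (SE 0.20). Gjb5, a connexin of gap junctions, had 249.99 and 190.4 without LIF, against 507 and 673 with LIF, a difference of -1.42 (SE 0.22). The gap between the groups chose these 3 genes, so its width is a description. In J1 cells without LIF, both arrays of Dapp1 and Gjb5 lay below a log2 of 8. Higher signals in other arrays carried their means past the floor.

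Lama1, the laminin alpha chain of embryonic basement membrane, had signals of 371 and 216 without LIF, against 634 and 780.3 with LIF, a difference of -1.31 (SE 0.27). Abca1, a cholesterol efflux transporter, had 453 and 359.5 without LIF, against 787 and 687 with LIF, a difference of -0.87 (SE 0.18). Yes1, a kinase of the Src family, had 1403 and 1121 without LIF, against 2408 and 2381 with LIF, a difference of -0.93 (SE 0.36), and its other probe set was also lower in both arrays. Myo15b, an unconventional myosin, had -0.86 (SE 0.20), and Nkx2-6, a homeobox gene, -0.84 (SE 0.20). For these 2 genes too, both J1 arrays without LIF lay below a log2 of 8, and other arrays carried the mean past the floor. Irak1, a kinase of interleukin-1 receptor signalling, had -0.87 (SE 0.19), but of its 4 probe sets 1 was lower and 1 higher in both arrays.

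The upward gaps were smaller. Over the 15 genes of largest upward gap the median difference was 0.68, against -1.14 over the 15 of largest downward gap. These values chose the genes and are a description. Nptx1, a neuronal pentraxin, had signals of 496 and 335 without LIF, against 187 and 181 with LIF, a difference of 1.15 (SE 0.22). Kcp, an extracellular modulator of BMP signals, had 453 and 482 without LIF, against 271 and 289 with LIF, a difference of 0.74 (SE 0.15) in both arrays alike. Stat4, a STAT best known from interleukin-12 signalling, had 335 and 435 without LIF, against 220.2 and 202 with LIF, a difference of 0.86 (SE 0.18). In J1 cells with LIF, both arrays of Nptx1 and Stat4 lay below a log2 of 8. Higher signals in other arrays carried the means of both genes past the floor.

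Grhl2, a transcription factor of epithelia, had signals of 1370.2 and 1471 without LIF, against 904.6 and 956 with LIF, a difference of 0.61 (SE 0.16). Its other probe set gave -0.01, so the gene's probe sets disagreed. Tenm3, a teneurin of cell adhesion, had 516 and 763 without LIF, against 356 and 352 with LIF, a difference of 0.83 (SE 0.21). Aph1a, a subunit of gamma-secretase, had 0.91 (SE 0.56) with both probe sets higher in both arrays. The remaining 8 were Tro, Stox2, Actr5, Syt9, Rab15, Chd6, Prkaa2 and Bcl6b, with differences from 0.61 to 0.79. For Tro the other probe set was lower in both arrays. Both J1 arrays of Bcl6b with LIF lay below a log2 of 8, and higher signals elsewhere carried its mean past the floor.

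Signalling lists other than LIF had medians from -0.11 to 0.15, and their counts without overlap stand beside 10.8% lower and 13% higher among all genes. Of 12 tested BMP and ID genes, 4 were higher without overlap and 0 lower, with a median of 0.12. In that list Dusp9, a phosphatase of ERK, had 0.37 (SE 0.20). The 9 WNT genes had a median of 0.15, with 2 higher and 1 lower. Fzd7, a WNT receptor, had signals of 1548 and 1898 without LIF, against 1227 and 1347 with LIF, at 0.42 (SE 0.20), and Axin2, a feedback target of the pathway, had 0.51 (SE 0.25). Fzd5, another receptor, ran the other way, with 1539 and 1403 without LIF, against 2146.5 and 2716 with LIF, at -0.72 (SE 0.23).

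The 19 FGF and ERK feedback genes had a median of 0.04, with 2 lower and 2 higher without overlap, near the 10.8% and 13% of all genes. Spry2, an inhibitor of receptor kinase signals, had signals of 2338 and 2034 without LIF, against 2828 and 3175 with LIF, at -0.46 (SE 0.18). Il17rd, another such inhibitor, had 0.27 (SE 0.17), and Fgfr1, the receptor, 0.26 (SE 0.20). The 11 tested AP-1 and immediate early genes had 3 lower and 0 higher, Junb, Ier2 and Nr4a1, with a median of -0.10. The 12 Nodal and activin genes had 2 lower and 2 higher (median -0.06), the 7 NF-kappaB genes 2 lower and 1 higher (median -0.11), and the 7 MYC network genes 0 of either (median 0.06). The 5 Eph and ephrin genes had 0 lower and 1 higher (median 0.08), Efnb2, a ligand of Eph receptors, with 781 and 808 without LIF, against 601 and 376 with LIF. The 5 retinoic acid genes had 1 lower and 0 higher (median -0.04).

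Among other lists the interferon and antiviral genes had a median of -0.23 over 10 tested, with 2 lower and 0 higher without overlap. These counts, and those of the polycomb and metallothionein lists, stand beside 10.8% lower and 13% higher among all genes. The 2 were Irf9 and Oas1a. Irf9, a DNA-binding partner of STAT proteins, had signals of 255 and 187 without LIF, against 312 and 322 with LIF, at -0.54 (SE 0.19). Both of its J1 arrays without LIF lay below a log2 of 8. Oas1a, an antiviral synthetase, was at -0.40 (SE 0.17). The 17 polycomb genes had 4 higher and 0 lower (median 0.03). Of these, Jarid2, a partner of polycomb complex 2, had 7903 and 8529 without LIF, against 6282 and 7268 with LIF, at 0.28 (SE 0.15), and Bmi1, a subunit of polycomb complex 1, had 0.32. The 7 metallothionein and iron genes had 3 higher and 0 lower (median 0.00), of which Mt1 had 0.30 (SE 0.19) and Mt2 0.24 (SE 0.15), both metal-binding proteins.

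The housekeeping and stress lists had medians from -0.06 to 0.13, and their counts without overlap stand beside 10.8% lower and 13% higher among all genes. The 44 cytosolic ribosomal protein genes had 2 lower and 0 higher (median -0.06), but the median was 0.09 in first and -0.24 in second arrays. The 88 nuclear-encoded respiratory chain genes had 8 lower and 4 higher (median -0.01), the 32 cell cycle genes 3 and 2 (median -0.02) and the 22 glycolysis and hypoxia genes 4 and 2 (median -0.03). In that last list Hk2, a hexokinase, had -0.30 (SE 0.15). The 21 cholesterol and fatty acid synthesis genes had 1 lower and 2 higher (median -0.06), the 22 amino acid and unfolded protein stress genes 1 and 2 (median 0.13), the 15 p53 targets 0 and 1 (median 0.04) and the 17 claudins, cadherins and junction genes 1 and 2 (median -0.03). As with the ribosomal genes, first and second arrays gave medians of opposite sign for the stress list (-0.05 and 0.29), the synthesis list (0.11 and -0.14), the cell cycle (0.05 and -0.13) and glycolysis (0.07 and -0.07). The higher p53 target was Pmaip1 (Noxa), a promoter of cell death, at 0.73 (SE 0.32).

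Markers of other cell types were mostly below the floor. Beside the 10.8% lower and 13% higher of all genes, primitive endoderm genes had 1 lower and 2 higher of 8 (median 0.00), neural ectoderm genes 2 and 2 of 7 (median 0.10), trophoblast genes 1 and 0 of 4 (median -0.10) and fibroblast or feeder genes 0 and 0 of 6 (median -0.12). The 27 actin cytoskeleton and adhesion genes had 1 lower and 0 higher (median -0.05). The lower trophoblast gene was Tfap2c, an AP-2 transcription factor also known in germ cells, with signals of 729 and 1013.5 without LIF, against 1377 and 1876.5 with LIF, at -0.90 (SE 0.41). Its 3 probe sets were all lower in both arrays. The germ cell list had 0 lower and 2 higher of 9 (median 0.22, with -0.02 in first and 0.23 in second arrays). The 2 tested genes of the two-cell-like list ran in opposite directions. Eif1a was lower without overlap, at only -0.16 (SE 0.22). Usp17la was higher in both arrays with overlapping groups, at 0.42.

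**Figure D3:**
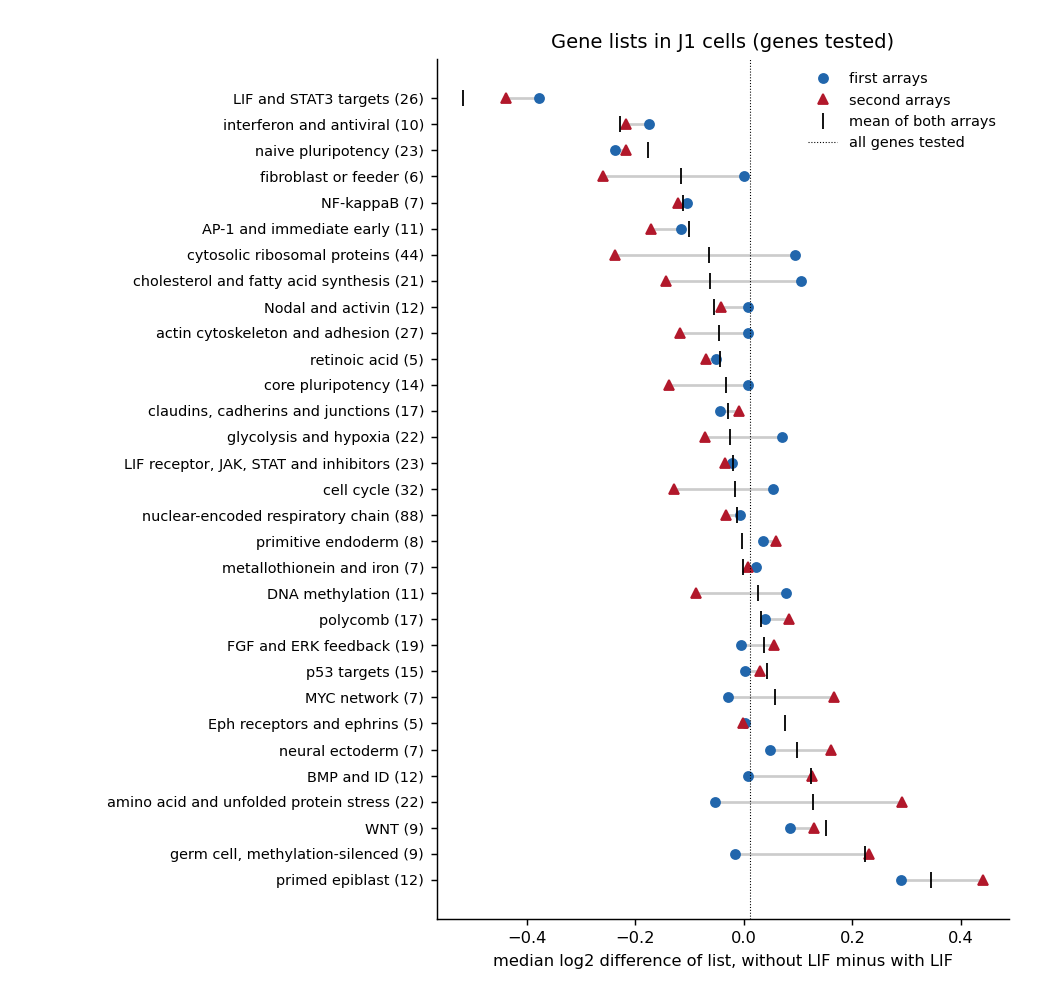
Median log2 difference (without LIF minus with LIF) of each gene list with at least 5 tested genes, in first J1 arrays (circles), second J1 arrays (triangles) and their mean (bars), with the number of tested genes in brackets. The LIF and STAT3 targets lie lowest and the primed epiblast genes highest, and the dotted line is the median of all tested genes, 0.01.

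The cells labelled Rex-1 knockout were measured on arrays whose LIF differences did not enter the choice of the 30 genes of largest gap. Their levels did enter the signal floor, and Myo15b lay below 8 on the J1 arrays alone. With the floor, the probe set and the gap taken from the J1 arrays alone, the counts of 12 and 7 that follow were the same (beside 10.6% and 14.3% of all genes). Of the 15 lower genes, 12 were also lower without overlap there, beside 10.9% of all genes, with a median of -0.83. Of the 15 higher genes, 7 were also higher without overlap, beside 14% of all genes, with a median of 0.12. Socs3 had signals of 776 and 914 in the knockout-labelled cells without LIF, against 7052 and 6546 with LIF. Its difference there, -3.01, was close to the -2.97 of J1 cells, and the first J1 array without LIF had the highest Socs3 signal of the 4 arrays without LIF.

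Some genes had opposite signs in the 2 lines. Stat4 had 202 and 209 in the knockout-labelled cells without LIF, against 304 and 319.5 with LIF, so the difference was 0.86 in J1 cells and -0.60 there. In J1 and then in knockout-labelled cells, Nptx1 had 1.15 and -0.23, Actr5 0.79 and -0.19, Irak1 -0.87 and 0.37, and Nkx2-6 -0.84 and 0.34. These 5 were opposite in both first and second arrays, and Aph1a, Tro and Prkaa2 were opposite in the mean only. The test of the difference between the lines called none of them. limma called 0 of 14892 probe sets (0%) for this difference, with 159 at an unadjusted p under 0.05. The difference between lines was 1.46 (SE 0.25) for Stat4 and 1.38 (SE 0.31) for Nptx1, each at an adjusted p of 1. Both genes were chosen by their gap on the J1 arrays, which enter this difference. Its size is therefore a description, and the SE does not account for the choice.

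**Figure D4:**
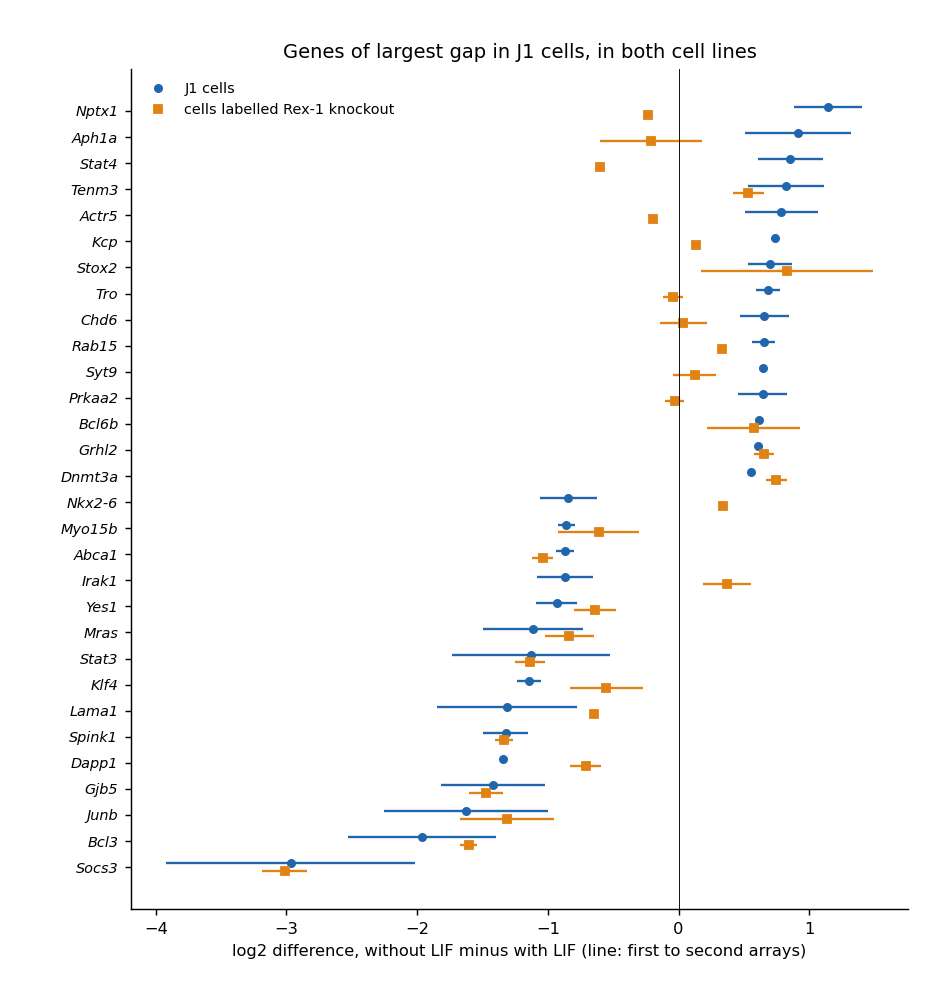
Log2 difference (without LIF minus with LIF) of the 30 genes of largest gap in J1 cells, in J1 cells (blue circles) and in cells labelled Rex-1 knockout (orange squares), with lines from the first to the second arrays. The J1 values chose the genes. Socs3 lies near -3 in both lines, and Stat4, Nptx1, Actr5, Aph1a, Tro, Prkaa2, Irak1 and Nkx2-6 have means on opposite sides of 0.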

How the data were processed

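The deposited values are linear signal intensities per probe set, made by the authors. Per the submitters' processing notes GCRMA was used, with no version or role, and no source used here gives the step that summarised them. Every deposited column had a mean of 500 after its lowest and highest 2% were left out. Precision is limited by having 2 arrays per group.

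The log2 of each intensity was used, with no pseudocount. The 64 control probe sets were left out, and a mean log2 of at least 8 over the 8 arrays was required. The model (limma 3.58.1, R 4.3.3) had a mean for each of the 4 groups, with the 8 arrays sharing the variance estimate, eBayes without a trend and Benjamini-Hochberg adjustment over 14892 probe sets. Each gene was read from its probe set of highest mean. In the platform annotation 13638 tested probe sets have 1 symbol and 458 several, from which no gene was named. This gave 8365 genes, and 0 symbols changed through RefSeq (GRCm38.p6). Differences are without LIF minus with LIF. Groups do not overlap when both arrays of one lie beyond both of the other. Named genes are the 15 of largest gap in each direction, up to 4 per list and direction, and 22 chosen pathway genes. Further genes were named after their values were seen. Members and lists were chosen with earlier results of these data known.

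Whether the letter r pairs arrays was checked from the data. Between any 2 groups, the differences of second from first array had a correlation of 0.236 to 0.638 over the tested probe sets. All were above 0.1, so the letter was treated as pairing arrays. The fit with it as a replicate block is given where it bears on a call. The SE values in the text and the overlap of groups do not use the pairing. With the block the SE was 0.22 instead of 0.60 for Klf5 and 0.17 instead of 0.41 for Icam1. For Dnmt3b it was 0.31 in both fits. The fit was tested on simulated data. Figures were drawn with matplotlib 3.10.9.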

Additional observations from a re-analysis of the deposited data

How the results depend on the processing

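With a replicate block for the letter r, 0 probe sets were called in J1 cells and 0 for the difference between the lines, and no other call was altered by it. The 0 calls in J1 cells also held at a threshold of 0.1, at floors of 7 and 10, with a log2 of 4 in 2 arrays, with quantile normalization, with a trended and robust prior, with the 4 J1 arrays alone, and at a floor of 10 with the block, a setting chosen after seeing the data. Leaving out 1 J1 array gave 0 to 4 calls. The count of probe sets at least 2-fold lower in both arrays was 10, and it was 17 at a floor of 7, 3 at a floor of 10, 45 at 1.5-fold, and 12 to 39 with 1 array left out. The count at least 2-fold higher was 1, and it was 12 at a floor of 7, 0 at a floor of 10, 0 with quantile normalization, 30 at 1.5-fold, 0 when all 4 pairs of arrays had to differ, and 6 to 19 with 1 array left out. Leaving out an array was added for these counts after seeing the data. The median of the LIF and STAT3 targets was -0.46 when each gene was the mean of its probe sets and -0.64 to -0.26 with 1 array left out. Of the genes named by the rule, 6 took the other sign. Il6st was -0.0011 with quantile normalization and ranged from -0.23 to 0.25 with 1 array left out, as did Zfp42 from -0.26 to 0.067, Klf5 from -1.33 to 0.27, Pou5f1 from -0.19 to 0.033, Myc from -0.48 to 0.37 and Pim1 from -0.23 to 0.71. Of 11 genes named after their values were seen, 6 took the other sign with 1 array left out. Cebpb ranged from -0.74 to 1.19, Cebpd from -0.015 to 0.97, Socs2 from -0.26 to 0.0070, Cish from -0.24 to 0.014, Socs4 from -0.22 to 0.18 and Socs7 from -0.39 to 0.36. The counts of 12 and 7 genes whose groups did not overlap in the knockout-labelled cells were the same with the genes chosen from the J1 arrays alone, a setting chosen after seeing the data. The causes were not tested. Signals near the floor carry an unknown share of background.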

Other observations

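Below the signal floor, where no call was sought, 166 members of the lists were measured, and 6 of them were at least 2-fold lower in both first and second arrays without LIF and 3 at least 2-fold higher. Over all 9828 genes below the floor the shares were 3.65% and 2.49%, and neither count among the list members exceeded them. Socs1, a relative of Socs3, had signals of 16.3 and 43.2 without LIF, against 90.05 and 91.5 with LIF. Rel, a subunit of NF-kappaB, had 17.7 and 52.6 without LIF, against 76.8 and 122 with LIF. Both had non-overlapping groups at signals far below those of the tested genes. The share of all genes below the floor with non-overlapping groups was not computed, here or for the genes that follow.

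Mixl1, a homeobox gene of mesendoderm, had signals of 88.7 and 55.3 without LIF, against 28.1 and 19.7 with LIF. Sall2, a zinc finger factor on the primed list, had 347 and 334 without LIF, against 179 and 182 with LIF. Zic2, also on that list, had 232 and 309 without LIF, against 205 and 95.3 with LIF. All 3 had non-overlapping groups, and these genes were chosen after their values were seen. On the primed list Sox3 ran opposite to Sall2 and Zic2, with 201 and 238 without LIF, against 313 and 256 with LIF. Ncam1 and Car14 of that list were also lower in both arrays, with overlapping groups. Other mesoderm list members ran opposite to Mixl1. Evx1 had 20.5 and 22.2 without LIF, against 62.9 and 138.6 with LIF. Wnt3 had 6.1 and 2.2 without LIF, against 56.1 and 32.7 with LIF, and Gsc had 5.9 and 4.3 without LIF, against 27.0 and 45.2 with LIF.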
